A study of Mus musculus with 6 samples.

Results

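Pigment genes stood higher in the skin of osimertinib-treated mice than in control skin, in 9 of the 10 genes examined and in every treated library, where 7.53% of all genes with at least 1 count were so separated. None of the 10 reached an adjusted p of 0.05 in edgeR. The set holds the genes that build and run the melanosome, the organelle in which melanocytes make melanin: the enzymes Tyr, Tyrp1 and Dct, the structural and maturation proteins Pmel, Mlana and Gpr143, the transporters Slc24a5, Slc45a2 and Oca2, and the transcription factor Mitf. The members were taken by gene name from the deposited table, and all 10 were found among its 33308 genes. The exception was Mitf, whose treated libraries lay within the control range, just below it and far below it.

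Total RNA was taken from mouse skin, 3 samples from mice given osimertinib, a lung cancer drug that blocks the kinase of EGFR, the receptor for epidermal growth factor, for 42 days, and 3 from untreated controls. The labels give no strain, coat colour, age, sex, dose or vehicle, nor do they state that each sample is a different animal. The p-values therefore reflect sample-to-sample spread, part or all of which may be technical. The libraries held 59877553 to 60719064 counts in the osimertinib group and 54112624 to 57174797 in the control group. The summed level of 4 epidermal keratin markers was 9801 to 18877 CPM (TMM-scaled counts relative to depth) in treated skin and 10339 to 32011 in control skin, and markers of skin fibroblasts were present in all libraries. The amount of skeletal muscle differed widely: 12 muscle genes summed to 37018 to 68438 CPM in treated skin, and to 41986, 152609 and 249 CPM in controls 1, 2 and 3.

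In skin, melanocytes lie in the hair follicle and, in mice, pigment production is tied to the growth phase of the hair cycle, when melanocytes in the hair bulb hand melanin to the cells of the growing shaft. Tyrosinase (Tyr) catalyses the rate-limiting step from tyrosine, and Dct and Tyrp1 act further along the path to the dark pigment eumelanin. Pmel forms the fibrils on which melanin is laid down, and the melanosomal transporters set its ionic milieu and pH. Mitf, a basic helix-loop-helix factor, binds E-box sequences such as CATGTG and drives many of these genes. Melanocytes are a small part of whole skin, and in such bulk samples a change in the number of these cells and a change in RNA per cell cannot be told apart.

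The sequences before the RefSeq start sites are shown because Tyr, Tyrp1, Dct and Slc24a5 share a motif there. Being high in the same libraries was not particular to them, since all members but Mitf were. No window was matched for Pmel, Mlana, Gpr143 and Slc45a2. RefSeq windows (build GRCm38.p6) were matched for 6 of the 10 genes, Mitf having 3 start sites and the others 1 each. In the 250 bases before the start, TCATGTG was present on either strand in Tyr, Tyrp1, Dct and Slc24a5, and its core CATGTG also in Oca2. Dct held it in both orientations. Over all 32851 RefSeq windows of the same length, 3.25% held TCATGTG and 12.3% held CATGTG, which every TCATGTG includes. The palindromic E-box CACGTG, present in 6.02% of all windows, was in none of these 8 windows, and none of the 3 Mitf windows held any of these motifs. The RefSeq start of Tyrp1 lies downstream of the start of the gene in the deposited table, 80834123, so that the end of its window (chr4:80833963-80834212), with the motif, is inside the gene by that table, and its letters are not shown. The other windows lie at chr7:87493513-87493762 on the minus strand for Tyr, chr14:118052247-118052496 on the minus strand for Dct, chr2:125067877-125068126 on the plus strand for Slc24a5 and chr7:56239509-56239758 on the plus strand for Oca2. They are written 5′ to 3′ on the gene's strand, with capitals marking TCATGTG or CATGTG, or its reverse complement.
Tyr: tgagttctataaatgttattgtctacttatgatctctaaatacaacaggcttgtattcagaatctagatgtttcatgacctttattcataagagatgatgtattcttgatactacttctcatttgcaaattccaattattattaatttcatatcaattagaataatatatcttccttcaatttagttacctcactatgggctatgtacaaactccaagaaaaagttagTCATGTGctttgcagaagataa
Dct: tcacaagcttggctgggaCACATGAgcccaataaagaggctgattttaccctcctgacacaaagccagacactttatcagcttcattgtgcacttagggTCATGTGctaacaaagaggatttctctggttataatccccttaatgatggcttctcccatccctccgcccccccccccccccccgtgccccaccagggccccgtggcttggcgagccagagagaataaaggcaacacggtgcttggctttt
Slc24a5: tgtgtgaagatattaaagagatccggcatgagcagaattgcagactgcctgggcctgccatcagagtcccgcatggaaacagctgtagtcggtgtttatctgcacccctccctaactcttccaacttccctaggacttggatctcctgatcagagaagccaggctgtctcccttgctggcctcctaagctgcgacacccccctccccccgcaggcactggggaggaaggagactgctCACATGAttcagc
Oca2: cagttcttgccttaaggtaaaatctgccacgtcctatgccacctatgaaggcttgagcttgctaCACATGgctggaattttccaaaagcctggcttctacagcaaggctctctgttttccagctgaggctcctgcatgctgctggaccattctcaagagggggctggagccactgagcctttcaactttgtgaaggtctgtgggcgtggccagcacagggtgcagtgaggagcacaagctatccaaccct
The motif had its last base at position −16 from the start in Tyr, −41 in Tyrp1, −7 in Slc24a5 and −145 in Dct, whose reverse copy ended at −226. A match of letters is a description of these windows and does not show that a factor was bound.

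Levels are given first as FPKM, the authors' fragments per kilobase of transcript scaled to library size, which allow genes of different length to be set side by side. Among the melanin enzymes, Tyr (chromosome 7, 87424771 to 87493512, minus strand) was at 1.07, 3.16 and 0.727 FPKM in osimertinib libraries 1, 2 and 3, and at 0, 0.127 and 0.0158 FPKM in controls 1, 2 and 3. These values rest on 529, 1573 and 365 counts in treated skin and on 0, 60 and 8 counts in control skin. The 2 groups did not overlap, and the lowest treated library was 5.74 times the highest control. Control 1, with 0 counts of Tyr, allows up to 3 counts, or 0.0554 CPM before TMM scaling, a limit that covers counting error only. Dct (chromosome 14, 118012790 to 118052185, minus strand), which converts dopachrome, was at 8.36, 22.8 and 7.72 FPKM in treated skin and at 0.533, 1.41 and 0.616 FPKM in control skin. Tyrp1 (chromosome 4, 80834123 to 80851718, plus strand), an enzyme of the same family, was at 5.11, 23.4 and 5.51 FPKM in treated skin and at 0.424, 1.16 and 0.533 FPKM in control skin. In all 3 enzymes osimertinib 2 was the highest treated library and control 2 the highest control.

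Of the structural and maturation proteins, Pmel (chromosome 10, 128704195 to 128715627, plus strand) had the highest level of all members in treated skin. It was at 17.8, 43.6 and 13.3 FPKM in osimertinib libraries 1, 2 and 3 and at 1.99, 2.46 and 2.90 FPKM in the controls. Mlana, a melanosomal membrane protein that works with Pmel in early melanosomes (chromosome 19, 29697824 to 29708634), was at 16.2, 27.9 and 10.2 FPKM in treated skin and at 0.835, 2.26 and 0.794 FPKM in control skin. The groups lay apart in both genes, the lowest treated library being 4.57 times the highest control in Pmel and 4.51 times in Mlana. Gpr143, a receptor in the melanosome membrane (chromosome X, 152781921 to 152808646), had the lowest level of all, with 41, 167 and 15 counts in treated skin and 0, 8 and 0 counts in control skin. Its groups also lay apart, but only by 2.05 times in FPKM between osimertinib 3 and control 2.

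Among the transporters, Slc24a5 and Slc45a2 showed the widest separation of all members. Slc24a5, a potassium-dependent sodium-calcium exchanger of the melanosome (chromosome 2, 125068124 to 125088677), was at 4.01, 8.23 and 5.00 FPKM in treated skin and at 0.0846, 0.276 and 0.0858 FPKM in control skin, so that the lowest treated library was 14.5 times the highest control. Slc45a2, which helps to keep the melanosome from turning acidic (chromosome 15, 11000721 to 11029233), was at 0.688, 2.34 and 0.808 FPKM in treated skin and at 0.0271, 0.107 and 0.0264 FPKM in control skin. Oca2, the pink-eyed dilution protein, a melanosomal anion channel component (chromosome 7, 56239760 to 56536518), had 177, 547 and 61 counts in treated skin and 0, 25 and 0 counts in control skin. All 3 were separated between the groups, Slc45a2 by 6.46 times and Oca2 by 2.37 times between the nearest libraries.

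**Figure D1:**
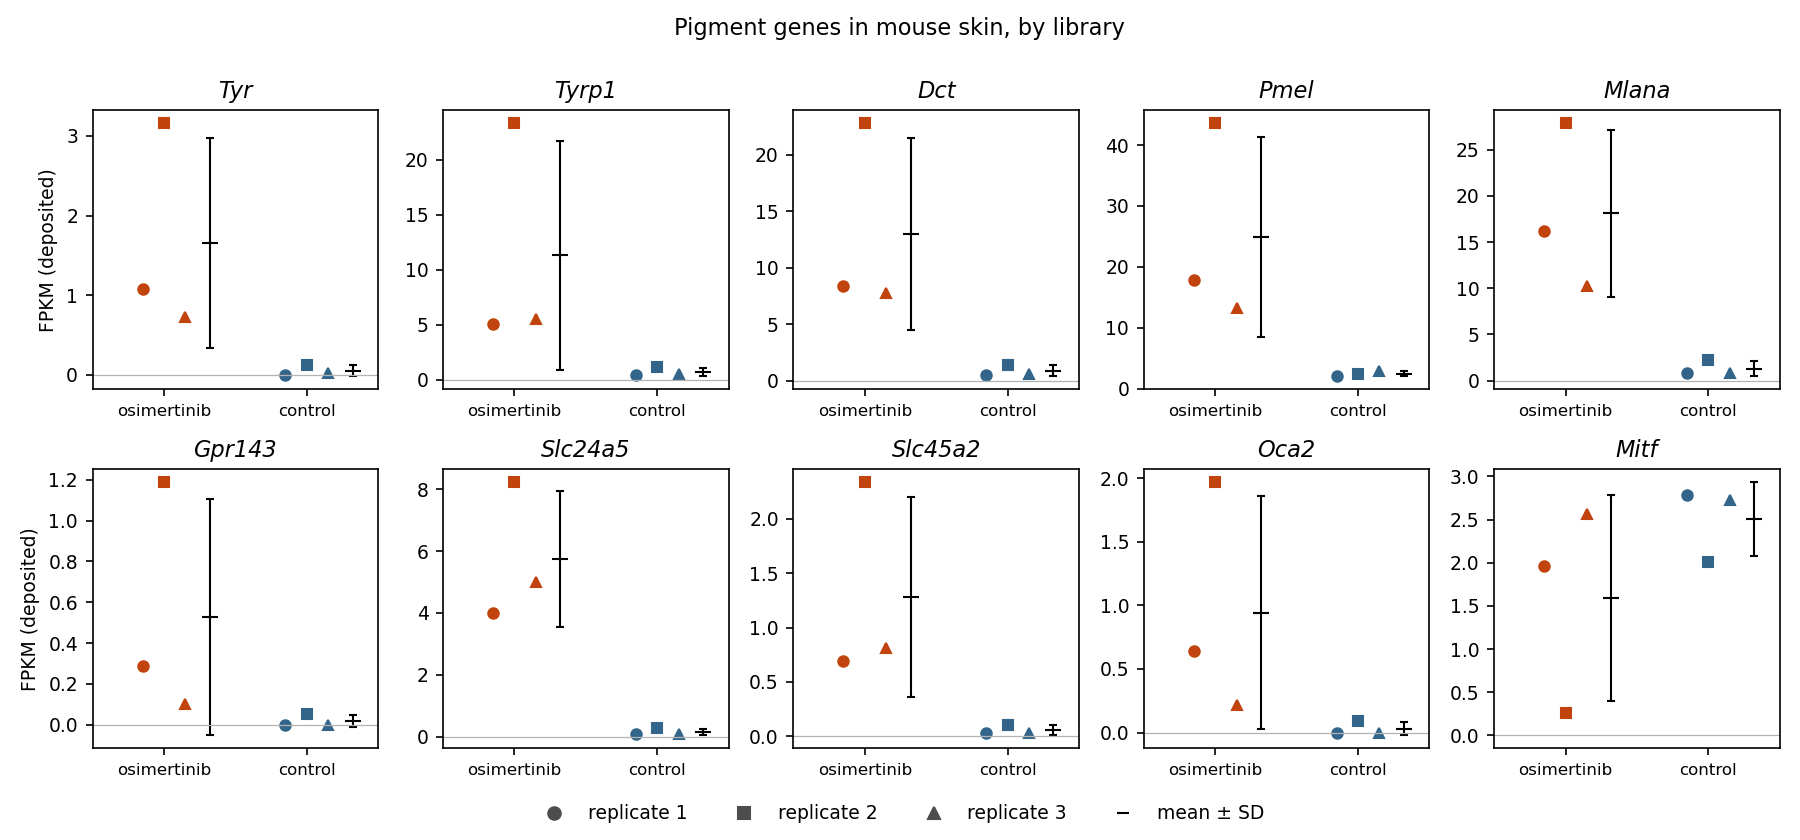
FPKM of each of the 10 pigment genes in the 3 osimertinib and 3 control libraries, each panel with its own linear axis, points marking libraries by replicate number and bars the mean and SD. In 9 genes every treated library lies above every control and osimertinib 2 is the highest, while Mitf is lowest in osimertinib 2.

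Mitf did not share the pattern of the other members. It was at 1.96, 0.263 and 2.56 FPKM in osimertinib libraries 1, 2 and 3, and at 2.78, 2.01 and 2.72 FPKM in the controls (chromosome 6, 97807052 to 98018707, plus strand). The groups overlapped, and osimertinib 2, the library with the most of every other pigment transcript, had the least Mitf, the lowest of the other 5 libraries being 7.46 times as high in FPKM. Mitf had 115 counts there, and 830 to 1131 counts in the other 5 libraries. The fitted log2 fold change of Mitf was −0.70 ± 0.74 (SE, n = 3 per group, edgeR's quasi-likelihood test, adjusted p = 0.748), and −0.18 without osimertinib 2. The table has 1 value per gene, so the melanocyte form of Mitf, which starts at the most downstream first exon, was not separated from the forms used by other cells. The related factors Tfe3 and Tfeb, members of the same MiT family, differed by 0.31 ± 0.18 and −0.02 ± 0.49 on the log2 scale, with adjusted p of 0.511 and 0.994 in the same edgeR fit.

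Genes entered the test across the table when their FPKM averaged 1 or more over all 6 libraries, which left 13498. Of the 10 members, 6 passed this filter (Tyrp1, Dct, Pmel, Mlana, Slc24a5 and Mitf), and Tyr, Slc45a2, Oca2 and Gpr143 did not. The mean is over both groups, so Slc24a5, at 0.149 ± 0.110 FPKM in control skin (SD, n = 3), passed only through its level in treated skin, as did Dct and Tyrp1. No member was called by edgeR at an adjusted p of 0.05, and neither was any other gene (0% of genes in either direction). The log2 fold changes were 5.01 ± 0.73 for Slc24a5 (adjusted p = 0.145), 3.78 ± 0.83 for Tyrp1 (0.208), 3.70 ± 0.69 for Dct (0.18), 3.57 ± 0.69 for Mlana (0.188) and 3.22 ± 0.48 for Pmel (0.152), each with its SE from 3 libraries a group. Each of these 5 had an unadjusted p under 0.05, as had 7.22% of all tested genes in the higher direction and 6.73% in the lower. The tool mattered to the call. DESeq2 called the same 5 genes as higher, with adjusted p between 1.15e-10 for Slc24a5 and 9.93e-05 for Tyrp1, where it called 3.41% of all tested genes as higher and 2.95% as lower, and limma-voom called 0 genes in either direction, with 7.53% of genes higher and 6.42% lower at an unadjusted p under 0.05.

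For the 4 members below the filter a fit without it, over 31732 genes with at least 1 count, gave log2 fold changes of 4.82 ± 1.44 for Tyr, 4.59 ± 1.66 for Oca2, 4.43 ± 1.56 for Gpr143 and 4.27 ± 0.85 for Slc45a2 (SE, n = 3 per group). With edgeR's adjusted p of 0.375, 0.454, 0.44 and 0.212 in that order, none was called, and 5.29% of genes were higher and 4.12% lower at an unadjusted p under 0.05. DESeq2 without the filter called Slc45a2 (adjusted p = 1.15e-05) and not Gpr143 (0.0628), Tyr (0.129) or Oca2 (0.409), beside 1.65% of all genes called as higher and 1.05% as lower. The values of Tyr, Oca2 and Gpr143 hang on single libraries. Without osimertinib 2 the fitted log2 fold changes were 3.97, 3.49 and 3.03 (edgeR unadjusted p = 0.0368, 0.0889 and 0.127). Without control 2 they were 7.62, 11.00 and 9.18. Both controls then left are at 0 counts in Oca2 and Gpr143, so these fitted values depend on the prior count and are no bound.

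**Figure D2:**
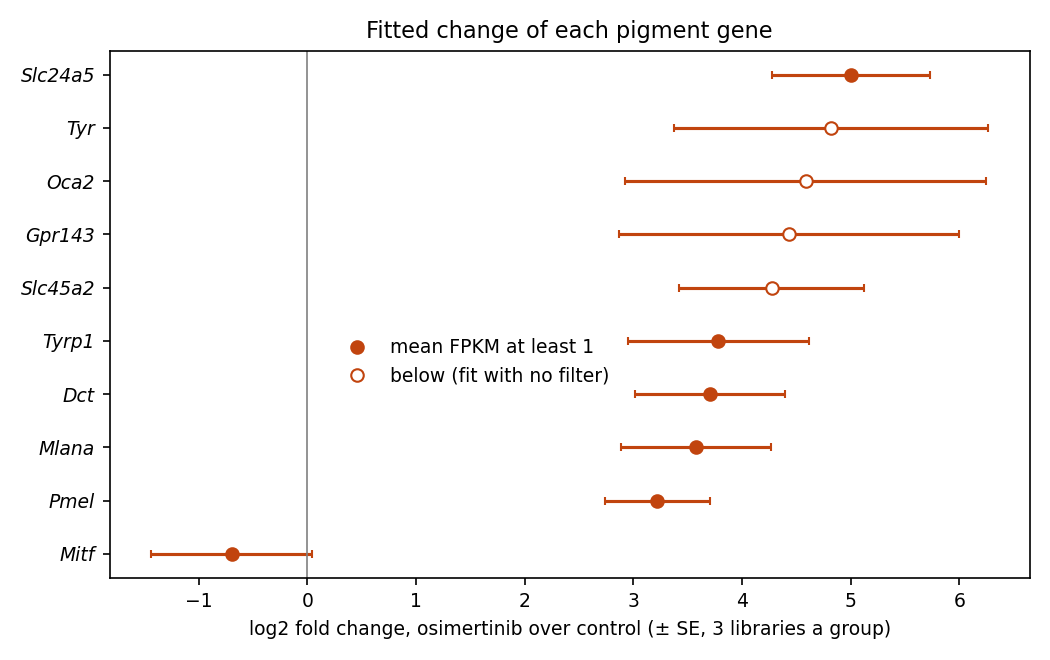
Fitted log2 fold change of each pigment gene, osimertinib over control, on the x axis, with bars of 1 SE, filled points from the filtered fit and open points from the fit with no filter. Slc24a5 is highest at 5.01, Pmel is lowest of the 9 positive genes at 3.22, and Mitf lies at −0.70.

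Among the 6 tested members 5 had groups that did not overlap, each higher in treated skin, where 11.3% of all tested genes were that far apart in the higher direction and 9.38% in the lower. Slc24a5, Dct and Tyrp1 passed the filter only through treated skin, so a higher mean there was fixed in advance. The count of 5 and the median below rest partly on these genes. With the 4 low members included the count was 9 of 10, beside 7.53% of the 31732 genes with at least 1 count. The median log2 fold change of the 6 tested members was 3.64, and that of all tested genes was −0.05. A log2 fold change of 3 or more was seen in 1.44% of tested genes.

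The members also differed among themselves. In treated skin the order of mean FPKM was Pmel at 24.9 ± 16.4, Mlana at 18.1 ± 8.99, Dct at 13.0 ± 8.52, Tyrp1 at 11.3 ± 10.4, Slc24a5 at 5.75 ± 2.21, Tyr at 1.65 ± 1.32, Mitf at 1.60 ± 1.19, Slc45a2 at 1.28 ± 0.919, Oca2 at 0.942 ± 0.914 and Gpr143 at 0.528 ± 0.580 (SD, n = 3 each). The ranges of mean ± SD of neighbours in this order overlapped, except those of Slc24a5 and Tyr. This SD is between libraries and does not measure doubt about the order of genes within them. Pmel ranked 1, Mlana 2 and Slc24a5 5 in each treated library. Tyrp1 ranked above Dct in osimertinib 2 only. In control skin Mitf came first at 2.50 ± 0.430 FPKM, level with Pmel at 2.45 ± 0.456, and the other 8 members were at 1.30 or less. Mitf made up 3.50%, 0.195% and 5.55% of the summed FPKM of the 10 genes in osimertinib libraries 1, 2 and 3, and 41.6%, 20.2% and 35.4% in controls 1, 2 and 3. Without Mitf the summed FPKM was 54.1, 135 and 43.6 in treated skin and 3.89, 7.94 and 4.97 in control skin, with no overlap between the groups.

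Slc24a5 was higher relative to Pmel in every treated library than in any control. Its FPKM was 0.226, 0.189 and 0.377 times that of Pmel in osimertinib libraries 1, 2 and 3, and 0.0425, 0.112 and 0.0296 times in controls 1, 2 and 3. The mean log2 ratio was −1.99 ± 0.52 in treated skin and −4.26 ± 0.99 in control skin (SD, n = 3 each), a difference of 2.28. A two-sided exact permutation test gave p = 0.1, the smallest that 3 against 3 libraries allow, and 0.3 after Benjamini-Hochberg adjustment over the 6 genes compared with Pmel. Tyr, not tested for its 0 in control 1, was at 0.0602, 0.0725 and 0.0548 times Pmel in treated skin and at 0, 0.0514 and 0.00544 times in control skin, also without overlap. Oca2 and Gpr143, at 0 in controls 1 and 3, were not tested either, and their ratios overlapped. Oca2 was at 0.0361, 0.0451 and 0.0163 times Pmel in treated skin and at 0.0371 times in control 2. Gpr143 was at 0.0163, 0.0272 and 0.00786 times in treated skin and at 0.0206 times in control 2. Mitf gave the same p as Slc24a5 in the other direction, with a mean log2 ratio to Pmel of −4.31 ± 2.68 in treated skin and 0.03 ± 0.40 in control skin. For Tyrp1, Dct, Mlana and Slc45a2 the ratio differed by 0.60, 0.71, 0.69 and 1.52 on the log2 scale (exact permutation p = 0.3, 0.3, 0.4 and 0.2 in that order), and control 2 lay within or above the treated range in each.

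**Figure D3:**
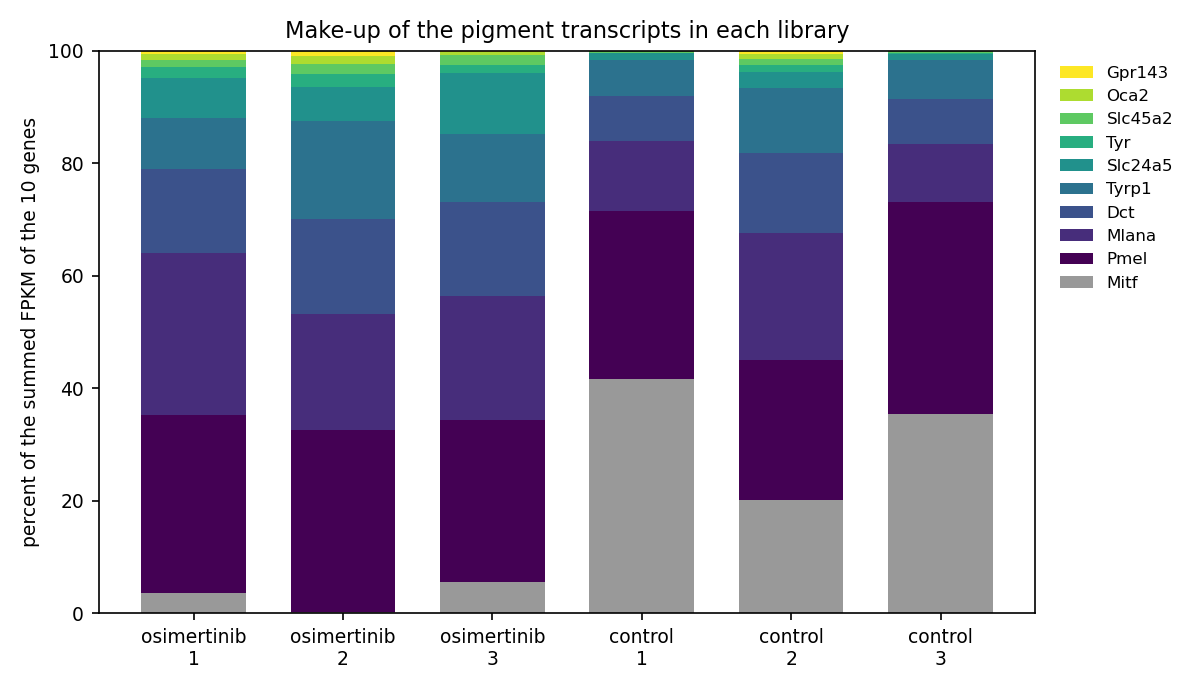
Share of each gene in the summed FPKM of the 10 pigment genes, as stacked bars from 0 to 100 percent, for osimertinib libraries 1 to 3 on the left and controls 1 to 3 on the right. Mitf takes 0.195% to 5.55% in treated skin and 20.2% to 41.6% in control skin, and Slc24a5 takes a larger share in treated skin.

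The 9 genes other than Mitf shared their order of libraries at the top. All 9 were highest in osimertinib 2 among treated libraries and in control 2 among controls, in TMM-scaled CPM. In FPKM Pmel was instead highest in control 3 among controls, at 2.90 against 2.46 in control 2. The largest spread within the treated group was in Gpr143, 11.4 times between the highest and the lowest library in FPKM, and the smallest in Slc24a5, 2.05 times. Over the 6 libraries the log2 CPM of these 9 genes had a Pearson r between 0.963 (Pmel) and 0.996 (Dct) with the mean profile of the 10 genes, and Mitf had −0.64. This is a description over 6 libraries in 2 groups, and the mean profile contains each gene.

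Hair matrix genes stood high in the same libraries. The 12 measured genes of that list, which hold regulators and keratins of the growing hair shaft, summed to 1164, 2945 and 874 CPM in osimertinib libraries 1, 2 and 3 and to 261, 256 and 340 CPM in controls 1, 2 and 3, and 10 of 12 lay above all controls, beside 11.3% of all tested genes. All 12 passed the filter and edgeR called 0, while DESeq2 called 7 as higher, beside 3.41% of all tested genes. Some of the 12, Wnt10b, Lef1 and Krt36 among them, passed the filter only through treated skin. A higher mean in treated skin was thus fixed in advance for these genes. Wnt10b, a Wnt ligand made when a follicle starts to grow, was at 7.39, 16.1 and 9.25 FPKM in treated skin and at 0.640, 0.477 and 1.54 FPKM in control skin. The homeobox factor Msx2 was at 11.2, 36.0 and 13.2 FPKM in treated skin and at 0.856, 1.62 and 1.29 FPKM in control skin. For the hair keratin gene Krt35, named after its values were seen, the values were 183, 484 and 127 FPKM in treated skin and 0.112, 17.8 and 0.117 FPKM in control skin, so control 2, the control with the most pigment transcripts, also held the most Krt35. The list as a whole did not follow this order among the controls. Msx2 was highest in control 2 too, but Wnt10b and the summed CPM of the list were lowest there. The part of the hair cycle in the pigment gene difference was not tested.

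The other genes of the pigment pathway differed by list. Of 32 genes of melanosome biogenesis and transport 26 were tested, edgeR called 0, and 13 had a positive and 13 a negative log2 fold change, with a median of 0.00. DESeq2 called 1 of the 26, near its share of 3.41% over all tested genes. This was Gpnmb, a glycoprotein related to Pmel that macrophages also make. Gpnmb was at 9.24, 29.7 and 24.5 FPKM in treated skin and at 2.60, 3.19 and 5.69 FPKM in control skin, with a log2 fold change of 2.39 ± 0.47 (SE, edgeR adjusted p = 0.19). Myo5a, the motor that carries melanosomes along actin, was at 2.76, 4.79 and 3.33 FPKM in treated skin and at 1.95, 1.54 and 2.98 FPKM in control skin, so its groups overlapped in FPKM, though not in TMM-scaled CPM. The log2 fold changes of Myo5a, of the endolysosomal channel gene Tpcn2 and of the sorting complex subunit Bloc1s2 were 0.69 ± 0.24, 0.69 ± 0.26 and 0.40 ± 0.14. The log2 fold changes of Hps1, Hps3, Hps4, Hps5 and Hps6, subunits of complexes that form lysosome-related organelles, lay between −0.39 (Hps5) and 0.10 (Hps3). The lowest of the 26 tested was Rab27a, which tethers melanosomes to their motor, at −1.03 ± 0.40 (SE, edgeR adjusted p = 0.337), named after its values were seen. Without the filter DESeq2 called 2 of the 32 as higher, Gpnmb and Slc7a11, beside 1.65% of all genes. It called 1 as lower, the trafficking gene Rab17 (log2 fold change −1.59 ± 0.40 in edgeR, SE), beside 1.05% of all genes.

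Of 18 lineage factors and receptors 11 were tested, edgeR called 0 and DESeq2 called 1 as higher, beside 3.41% of all tested genes. Their median log2 fold change was 0.11. Without the filter DESeq2 called 4 of the 18 as higher, beside 1.65% of all genes, edgeR called 0, and 8 of the 18 lay above all controls, beside 7.53% of genes. The gene called with the filter was Kit, the receptor for stem cell factor, at 1.42, 5.55 and 2.23 FPKM in treated skin and at 0.169, 0.385 and 0.255 FPKM in control skin (log2 fold change 3.32 ± 0.65, SE, edgeR adjusted p = 0.19). Kit, at 0.269 ± 0.109 FPKM in control skin (SD, n = 3), passed the filter only through treated skin. Its higher mean there was thus fixed in advance. The 3 with the next smallest p were Erbb3, a neuregulin receptor (−0.72 ± 0.38), the endothelin receptor gene Ednrb (0.64 ± 0.36) and the transcription factor gene Tfap2a (0.59 ± 0.35). Sox10, which acts in melanocytes and in Schwann cells, was at 1.75, 1.88 and 2.46 FPKM in treated skin and at 1.71, 1.26 and 1.81 FPKM in control skin, a log2 fold change of 0.28 ± 0.24. The other 3 called without the filter, named after their values were seen, were Mc1r, the melanocortin receptor, Trpm1, a channel of the melanocyte, and Mcoln3, a lysosomal channel. Mc1r was at 0.861, 1.10 and 1.04 FPKM in treated skin and at 0.00402, 0.0396 and 0.0373 FPKM in control skin. Trpm1 was at 1.02, 3.78 and 0.752 FPKM in treated skin and at 0.0473, 0.133 and 0.0584 FPKM in control skin. Mcoln3 was at 0.994, 1.21 and 1.02 FPKM in treated skin and at 0.146, 0.154 and 0.139 FPKM in control skin. All treated libraries lay above all controls in these 3 genes, and also in Pax3 and Cited1, a lineage transcription factor and a transcriptional coactivator, which were below the filter and not called.

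Of 13 measured genes for signals that reach melanocytes 8 were tested. EdgeR called 0 and DESeq2 called 1 as higher, beside 3.41% of all tested genes. The median log2 fold change of the 8 was −0.12. Without the filter DESeq2 called 2 of the 13 as higher, Foxn1 and Corin, beside 1.65% of all genes, and edgeR called 0. The gene called with the filter was Foxn1, which is also in the hair matrix list and is counted among its DESeq2 calls. Foxn1 is a transcription factor of hair keratinocytes that helps to draw melanocytes to the cells they pigment. It was at 4.33, 18.2 and 3.32 FPKM in treated skin and at 0.796, 1.09 and 2.16 FPKM in control skin. Kitl, the ligand of Kit, was at 3.36, 3.68 and 5.98 FPKM in treated skin and at 2.66, 2.75 and 2.11 FPKM in control skin, with overlap between the groups on the CPM scale and a log2 fold change of 0.67 ± 0.32 (edgeR adjusted p = 0.416). The endothelin gene Edn1 and Bmp4 overlapped between the groups, with log2 fold changes of −0.24 ± 0.23 and −0.40 ± 0.44.

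Markers of other cells that use the same factors did not, as lists, stand higher in treated skin. Kit and Mitf are also made by mast cells, whose 8 markers, 4 of them tested, summed to 17.8 to 42.2 CPM in treated skin and 27.2 to 39.2 CPM in control skin. None of the 4 tested mast cell markers lay apart between the groups, with log2 fold changes from −0.31 (Cpa3) to 0.32 (Tpsb2), and osimertinib 2, the library with the lowest Mitf, had the lowest sum. Schwann cells share Sox10 with melanocytes, and their 10 markers summed to 134 to 250 CPM in treated skin and 283 to 463 CPM in control skin. Of 8 tested Schwann markers 5 lay below all controls in TMM-scaled CPM, beside 9.38% of all tested genes. Another 1, Sox10, lay above all controls, beside 11.3% of all tested genes. EdgeR called 0 of the 8 and DESeq2 called 3 as lower, beside 2.95% of tested genes. Among the 3 were the myelin gene Mbp (−1.14 ± 0.29) and Mal (−1.27 ± 0.29). Macrophages, which also use Mitf and Gpnmb, had 8 markers that summed to 110 to 335 CPM in treated skin and 237 to 262 CPM in control skin, lowest in osimertinib 2. No marker of these 3 lists was at 0 counts in all libraries of a group, and their part in the results was not tested.

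**Figure D4:**
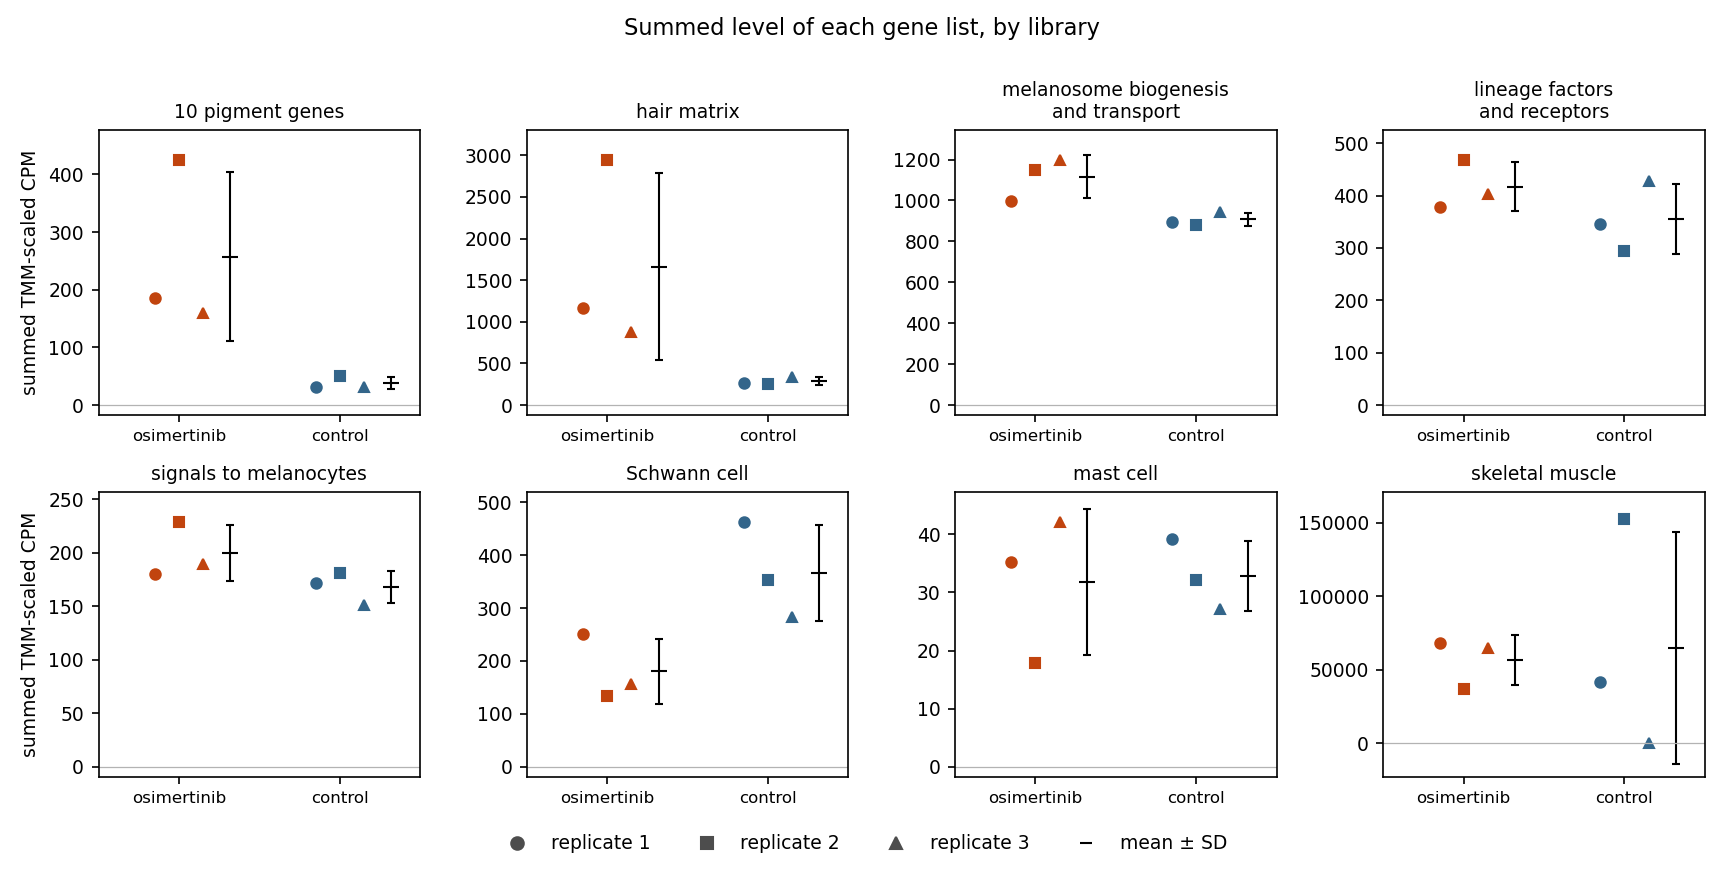
Summed TMM-scaled CPM of the 10 pigment genes and of 7 gene lists, by library, osimertinib left of control, with points marking replicate numbers and bars the mean and SD. The pigment and hair matrix sums are higher in every treated library and highest in osimertinib 2, the Schwann cell sum is lower in every treated library, and the mast cell sums overlap.

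Genes that overlap a member on the opposite strand could share reads with it, because the use of strand in counting is not given in the sources used here. In GENCODE mouse release 21 Pmel overlaps Cdk2 and Dgka, and Slc24a5 overlaps Myef2. Dct, Oca2 and Mitf overlap 4930435M08Rik, Gm44506 and Gm15531, whose values were not examined. The log2 fold changes of the 3 neighbours of Pmel and Slc24a5 were 0.19 ± 0.28 for Cdk2, −0.33 ± 0.33 for Dgka and 0.37 ± 0.24 for Myef2 (SE, n = 3 per group), and edgeR called none. Myef2 was at 7.13, 7.79 and 8.69 CPM in treated skin and at 7.28, 5.61 and 5.42 CPM in control skin, and its groups overlapped.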

How the data were processed

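RNA-seq of 6 mouse skin samples was analysed, 3 from osimertinib-treated and 3 from control mice, grouped and numbered by their titles. Per the labels' protocols, polyadenylated RNA was made into dUTP-marked libraries with molecular identifiers and sequenced in pairs. Cutadapt 1.9 and GRCm38 are named in the submitters' processing notes. What aligned and counted the reads, with which annotation and what use of strand and identifiers, is not given in the sources used here. From the deposited table came raw counts for each gene, as whole numbers, and the FPKM that the authors computed. Another 6 value columns fit no sample's labels and were left out.

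Counts were tested with edgeR 4.0.16 (R 4.3.3), quasi-likelihood F, TMM scaling and no covariate, on genes whose FPKM averaged 1 or more. Tests were two-sided, with Benjamini-Hochberg values over all genes tested and a threshold of 0.05. The SE is the size of the log2 fold change over the root of F. CPM are counts scaled by TMM-adjusted library size, and log2 CPM used a prior count of 2. Alternatives were DESeq2 1.42.0, limma 3.58.1, other scalings and filters, a replicate block, a muscle covariate and leaving out each library. The fits were also run on simulated counts, and the outcome is not reported here.

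The lists name 137 genes, of which 135 matched the table; the rest were not analysed here. Named genes are the 10 members, up to 4 genes of each list with the smallest p and the 8 genes closest in profile (1 of them is not reported here), with others marked as chosen after their values were seen or named for a stated relation to a member. The members, lists and rule were chosen with earlier results of these data known. Same-numbered samples did not deviate together throughout, so the replicate numbers were not taken as pairs. Promoter sequences are from RefSeq, build GRCm38.p6. Coordinates are those of the deposited table.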

Additional observations from a re-analysis of the deposited data

How the results depend on the processing

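No gene was called by edgeR with RLE scaling, with TMM factors computed without muscle genes, with filterByExpr, without a filter, with the replicate block or by limma-voom. DESeq2 called 858 genes, 5 of them pigment genes and 3 other genes of the pathway. Limma called 17 genes on log2(FPKM + 1), 1 of them the pigment gene Slc24a5 (adjusted p = 0.0414), 2 on log2(FPKM + 0.1) and 3 after quantile normalization. EdgeR called 2 when mean FPKM had to reach 5 and 1 with the muscle score as a covariate, neither a pigment gene. With no filter or with filterByExpr 9 members had separated groups, since 10 were then tested. Mitf lay below all controls after quantile normalization, and when osimertinib 3 or control 3 was left out. The median log2 fold change of the members was 2.65 on log2(FPKM + 1), whose pseudocount shrinks changes of low genes, and 2.92 to 4.52 when 1 library was left out, lowest without osimertinib 2 and highest without control 2, with 0 genes called each time. No member changed sign under any of these settings. The correlation of deviations between same-numbered samples was 0.222, 0.0294 and −0.115 for numbers 1, 2 and 3. With the replicate block the median was 3.71 and 0 genes were called. On log2(FPKM + 1) the fold changes of Tyr, Oca2 and Gpr143, which had 0 counts in 1 or 2 controls, were 1.23, 0.81 and 0.52. In a control at 0, up to 3 counts cannot be told from none at this depth.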

Other observations

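Outside the pigment pathway, genes whose log2 CPM over the 6 libraries lay closest to the mean profile of the 10 members included Dclk3, Lef1, Krt36, Ggt1, Cybrd1, Ccdc155 and Tsr3, with Pearson r between 0.993 and 0.998 over 6 libraries in 2 groups. Lef1 and Krt36 are also in the hair matrix list. Lef1, a transcription factor of Wnt signalling, was at 41.0, 89.9 and 31.8 CPM in treated skin and at 2.76, 9.04 and 2.66 CPM in control skin. Krt36, a keratin of the hair shaft, was at 35.3, 96.2 and 21.5 CPM in treated skin and at 0.219, 4.55 and 0.315 CPM in control skin. Cybrd1, a ferric reductase, was at 30.0, 65.8 and 18.4 CPM in treated skin and at 0.968, 3.54 and 0.835 CPM in control skin. These 3 genes were highest in osimertinib 2, and control 2 was the highest control. Tsr3, which modifies ribosomal RNA, had a like order of libraries but a log2 fold change of 0.32 ± 0.15 (SE), since the correlation takes no account of size.

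Slc7a11, the cystine transporter that feeds the yellow pigment pheomelanin and the antioxidant glutathione, was below the filter. It was at 0.254, 0.516 and 1.08 FPKM in treated skin and at 0.0519, 0.0245 and 0.124 FPKM in control skin, highest in osimertinib 3 and not in osimertinib 2. Corin, a protease of the dermal papilla that acts on agouti signalling in mice, was at 0.411, 1.06 and 0.434 FPKM in treated skin and at 0.0371, 0.0893 and 0.0910 FPKM in control skin. Both were chosen after their values were seen.

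The low value of Mitf in osimertinib 2 had few parallels. Of 13498 tested genes, 11 in that library were under 1/5 of the FPKM of every other library, against 9, 44, 49, 21 and 381 in osimertinib 1, osimertinib 3 and controls 1, 2 and 3. Among the 11 was Fgf2, a growth factor for melanocytes in culture, at 2.24, 0.0197 and 2.33 FPKM in treated skin and at 1.80, 1.76 and 1.35 FPKM in control skin. The cause of these drops in a single library was not tested.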
